A study of Mus musculus with 24 samples.

Results

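The vessels of the embryonic mouse cortex were followed through 10 genes of brain endothelial cells and pericytes. Of these, 6 are general endothelial genes (Pecam1, Cdh5, Cldn5, Kdr, Flt1 and Tek), 2 encode transporters of the blood-brain barrier (Slc2a1 and Mfsd2a), and 2 mark pericytes, the cells wrapped around capillaries (Pdgfrb and Rgs5). Rows were chosen by gene symbol alone, and each of the 10 had 1 row among the 22529 genes of the deposited table. All 10 passed the filter for testing, a value of at least 10 in at least 3 libraries.

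Vessels enter the embryonic cortex from the plexus at its surface and grow toward the ventricle, guided by VEGF-A from neural progenitors. Wnt7a and Wnt7b from the same progenitors act on endothelial cells to induce barrier properties, with tight junctions closing the gaps between cells and transporters carrying glucose and lipids across them. Endothelial PDGF-B recruits pericytes, which express its receptor and help to stabilize the new capillaries.

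Sequence upstream of the start site is shown for the 3 genes on which the comparisons below turn and whose windows hold one of the motifs searched: Mfsd2a, for its difference between genotypes at E17.5, and Slc2a1 and Flt1, for their fall at E15.5. Each is the 250 bases before the start site, from RefSeq on GRCm38.p6, written 5′ to 3′ on the gene's strand. Capitals mark ACGTG, the core of the hypoxia response element, or AGGAAG, a core of binding sites for ETS factors, which are active in endothelial genes.
Mfsd2a (chr4:122961189-122961438, minus strand): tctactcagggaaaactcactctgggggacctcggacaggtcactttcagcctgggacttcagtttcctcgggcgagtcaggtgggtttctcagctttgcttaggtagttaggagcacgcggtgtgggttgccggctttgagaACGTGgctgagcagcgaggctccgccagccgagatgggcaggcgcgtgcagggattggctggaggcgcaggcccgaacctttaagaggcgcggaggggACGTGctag
Slc2a1 (chr4:119108495-119108744, plus strand): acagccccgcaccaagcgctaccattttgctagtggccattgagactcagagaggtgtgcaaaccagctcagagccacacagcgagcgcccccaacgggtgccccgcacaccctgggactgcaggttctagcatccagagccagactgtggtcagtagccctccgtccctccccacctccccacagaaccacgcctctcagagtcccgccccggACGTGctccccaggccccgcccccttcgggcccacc
Flt1 (chr5:147726012-147726261, minus strand): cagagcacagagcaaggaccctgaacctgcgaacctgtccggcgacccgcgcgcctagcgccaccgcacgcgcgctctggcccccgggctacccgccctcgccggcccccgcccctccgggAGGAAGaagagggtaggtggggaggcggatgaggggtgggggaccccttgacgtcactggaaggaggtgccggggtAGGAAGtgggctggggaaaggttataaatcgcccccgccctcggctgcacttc
Windows were matched by symbol for 7 of the 10 genes. Pecam1, Cdh5 and Pdgfrb were not matched. Searched on both strands, ACGTG was found in 2 of the 7 windows, those of Mfsd2a and Slc2a1, and in 16.6% of all 32851 RefSeq windows of this length. AGGAAG was found in 1 of the 7, that of Flt1, and in 29.5% of all windows. The matches describe letters and do not show binding.

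RNA came from dissected ventricular zone of the cortex, the layer lining the ventricle in which cortical progenitors divide. Embryos with a conditional knockout (cKO) of Prdm16, a zinc-finger transcriptional regulator of these progenitors, were set against wild-type (WT) embryos, all on the C57BL/6 strain, at embryonic day (E) 11.5, 13.5, 15.5 and 17.5. Each of the 8 groups of genotype and day had 3 libraries, A, B and C, which makes 24 in all. Neither the Cre driver nor the cell type in which Prdm16 was deleted is given in the sources used here, and nor is whether a library holds 1 embryo or several, so p-values speak only of the scatter among these libraries, and some of it may be technical. Values are the authors' normalized reads, that is, reads divided by a size factor for each library, with the SD over 3 libraries. Fold changes are log2, with the SE, and adjusted p-values are from limma over the 17518 genes tested.

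The libraries held 25639836 to 38879931 recovered reads. In 5 groups (cKO and WT at E11.5, cKO at E13.5, cKO and WT at E15.5), library C came close to a mixture of A and B, with a median squared residual of 0.571 to 0.891 times the counting noise, against 2.24 to 3.81 in the other 3 groups. Results are therefore also given without those 5 libraries. Prdm16 reads were lower in every cKO library than in every WT library on the first 3 days. The cKO libraries still held 868 to 1397 of them at E11.5, 1784 to 1936 at E13.5 and 2025 to 2458 at E15.5. At E17.5 Prdm16 reads were 2983, 3594 and 3866 in the libraries labelled cKO and 2070.5, 2000.5 and 2052 in those labelled WT. That order goes against the labels, so these libraries are called by their labels. Whether the labels of E17.5 were exchanged, or Prdm16 reads were higher under correct labels, was not tested. Were the labels of that day exchanged, each genotype difference at E17.5 would change sign, and each step into E17.5 would start from the other genotype. Steps written as in cKO or in WT follow the labels. Libraries B and C of WT at E15.5 also stood apart, with 20242 and 10206 summed normalized reads of 10 epidermal genes, against 311 in WT A and 283 to 340.0 in the cKO libraries of that day. To a lesser degree, so did library C labelled WT at E17.5, with 1228 reads of the epidermal gene Krt10 against 250 and 228 in A and B. Not all epidermal genes were higher there, since Trp63 read 7.97 against 10.7 and 19.7.

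All 10 genes were detected in every library. Per kilobase of exon, the cKO libraries at E11.5 averaged 1788 normalized reads for Slc2a1, 679 for Cldn5, 511 for Cdh5, 483 for Mfsd2a, 277 for Kdr, 207 for Pecam1, 174 for Pdgfrb, 152 for Rgs5, 140 for Tek and 57.5 for Flt1. The ranges of neighbours overlapped for Cldn5 and Cdh5, for Cdh5 and Mfsd2a, and for Rgs5 and Tek. In WT at E11.5 the order of the 10 genes was the same. At E17.5 the levels per kilobase had drawn together at the top: the libraries labelled cKO averaged 848 for Cldn5, 774 for Mfsd2a, 773 for Rgs5 and 740 for Slc2a1, with each pair of neighbours among these overlapping. The libraries labelled WT averaged 841 for Rgs5, 745 for Cldn5, 563 for Slc2a1 and 445 for Mfsd2a, and only Rgs5 and Cldn5 overlapped.

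**Figure D1:**
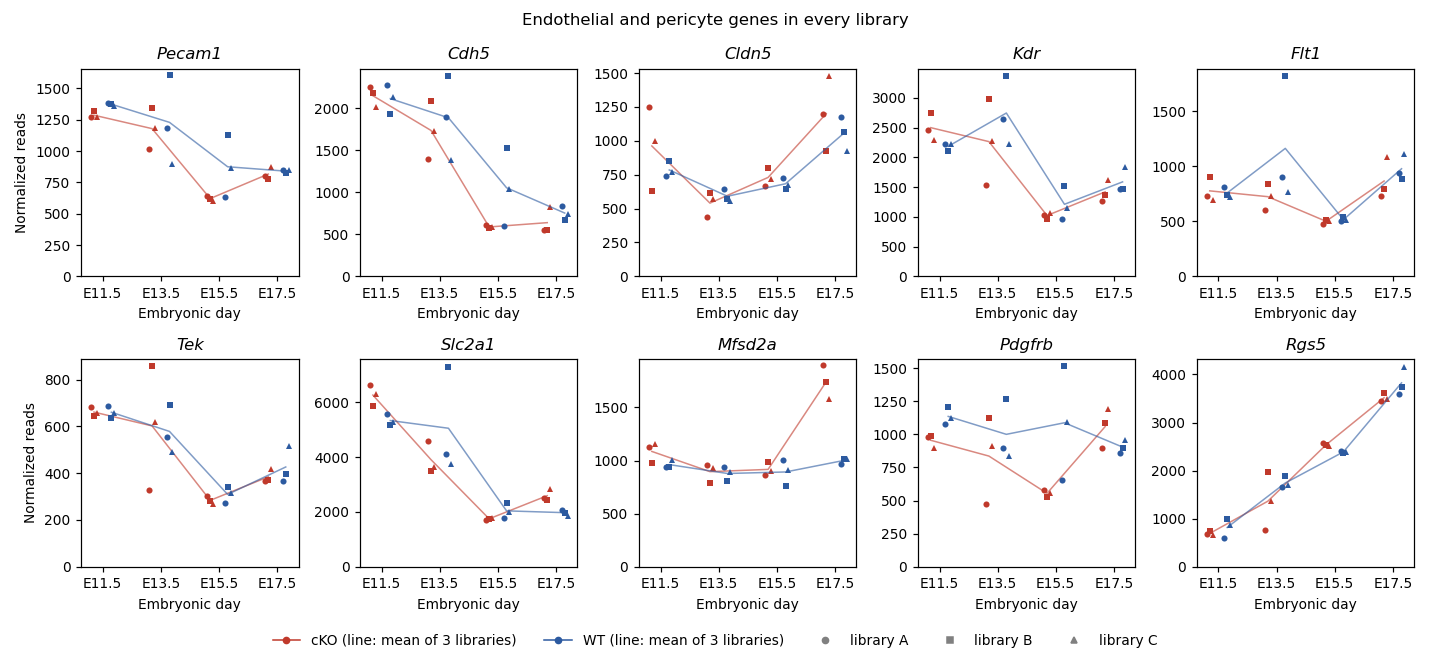
Normalized reads of each gene (vertical axis, from 0) by embryonic day and genotype. Symbols are the 3 libraries of a group and lines join group means; most endothelial genes and Slc2a1 drop at E15.5, Rgs5 climbs on every day, and the libraries labelled cKO at E17.5 stand above those labelled WT for Mfsd2a.

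The main change over time was a drop of the endothelial genes between E13.5 and E15.5, seen in both genotypes. Pecam1, Cdh5, Kdr, Flt1, Tek and Slc2a1 fell in cKO and fell in WT. In cKO 6 of the 10 genes fell, against 29.9% of all genes tested, and 1 rose, against 31.9%. In WT 6 fell, against 22.8% of all genes tested, while 24.2% of all genes rose and no member did: by limma 7 members had an unadjusted p under 0.05, Rgs5 at 0.46 ± 0.21 among them, and edgeR called 6. The median change of the 10 genes was -0.72 in cKO and -0.69 in WT, beside 0.0031 and 0.0013 over all genes tested. These are bulk samples, so fewer vessel cells in the dissected tissue and less RNA per cell cannot be told apart.

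**Figure D2:**
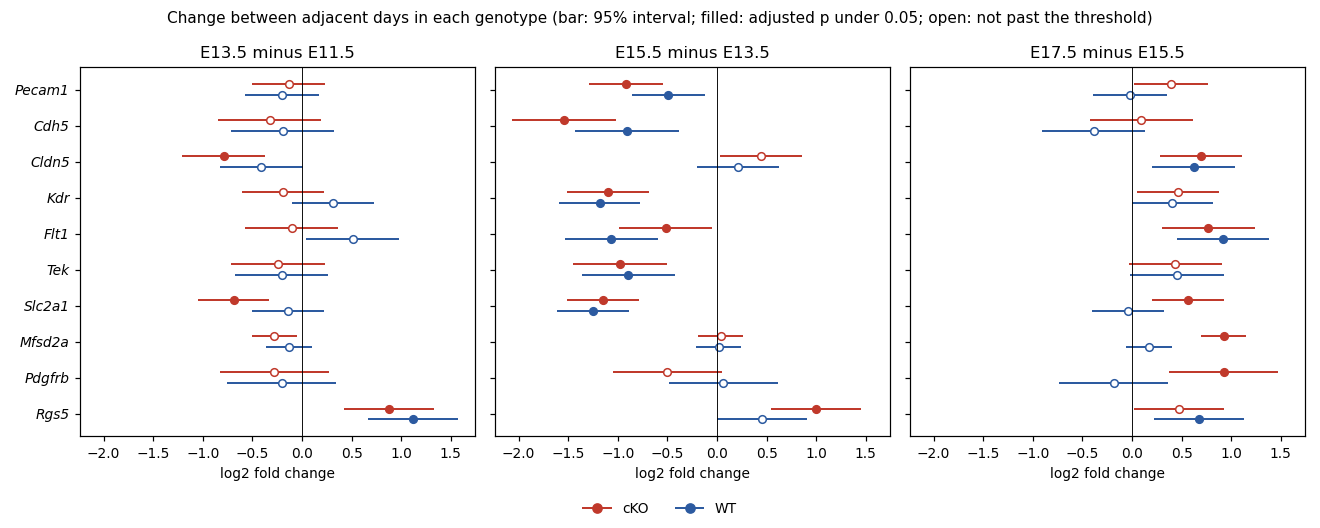
Log2 fold change of each gene (horizontal axis) between adjacent days, in cKO and in WT, with 95% intervals. Filled points passed the limma threshold. In the middle panel 6 genes lie below 0 in both genotypes, while Cldn5, Mfsd2a, Pdgfrb and Rgs5 do not.

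Cdh5 encodes VE-cadherin, the adhesion protein of endothelial junctions, and of the 10 genes it fell most in cKO. It read 2249.9, 2176 and 2019.9 in cKO libraries A, B and C at E11.5, 1389.9, 2086 and 1730.0 at E13.5, then 605, 571 and 586 at E15.5, and 549.7, 547 and 819 in the libraries labelled cKO at E17.5. The WT libraries read 2274, 1932 and 2135 at E11.5, 1899.9, 2379.8 and 1379 at E13.5, then 597, 1527 and 1037 at E15.5, and 837, 674 and 747 in the libraries labelled WT at E17.5. Every cKO library from E15.5 on lies below every earlier one, whereas in WT library B of E15.5 lies above the lowest library of E13.5. The fold change from E13.5 to E15.5 was -1.54 ± 0.25 in cKO (adjusted p = 1.7e-05) and -0.91 ± 0.25 in WT (adjusted p = 0.0046). Without libraries B and C of WT at E15.5 the WT change was -1.62.

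Pecam1 encodes CD31, an adhesion molecule of the endothelial surface, and its levels tracked those of Cdh5 over the 24 libraries with a Pearson r of 0.95. These points share libraries and days, so r describes the common course. Pecam1 averaged 621 ± 21.9 in cKO at E15.5 and 1179 ± 165 in cKO at E13.5, a change of -0.92 ± 0.17 (adjusted p = 0.00013). In WT it averaged 875 ± 249.6 at E15.5 and 1229 ± 359 at E13.5, a change of -0.49 ± 0.17 (adjusted p = 0.025). The WT call is not firm. It was lost without the 5 C libraries (-0.50, adjusted p = 0.10), when WT A or B at E13.5 was left out (-0.50 and -0.28), and when WT A or C at E15.5 was left out (-0.27 and -0.50). Without libraries B and C of WT at E15.5 it was -0.92.

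Cldn5, which encodes the main claudin of endothelial tight junctions at the blood-brain barrier, took another course. In cKO it read 1252, 631 and 1002 at E11.5, 435, 616 and 570.1 at E13.5, then 669, 800.0 and 719.8 at E15.5, and 1197, 924 and 1480.5 in the libraries labelled cKO at E17.5. WT values were 737, 851 and 766 at E11.5, 648, 568 and 557 at E13.5, then 729, 646 and 675 at E15.5, and 1173, 1066 and 925 in the libraries labelled WT at E17.5. The libraries of E17.5 lie above all those of E13.5 and E15.5 in both genotypes. The step from E13.5 to E15.5 passed in neither genotype (0.44 ± 0.19 in cKO and 0.21 ± 0.19 in WT), and the step from E15.5 to E17.5 was 0.70 ± 0.19 in cKO (adjusted p = 0.010) and 0.62 ± 0.19 in WT (adjusted p = 0.019). Neither of these last calls held without the 5 C libraries, at 0.69 (adjusted p = 0.080) in cKO and 0.61 (adjusted p = 0.11) in WT. The cKO call was also lost when library C labelled cKO at E17.5 was left out (0.53), and the WT call without library B or C at E15.5 (0.58 and 0.61) or library A or B labelled WT at E17.5 (0.54 and 0.61).

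The receptors Kdr (VEGFR2, the main signalling receptor for VEGF-A), Flt1 (VEGFR1, which binds VEGF-A and limits its supply to Kdr) and Tek (TIE2, the angiopoietin receptor) fell together. Kdr averaged 1021 ± 52.2 in cKO at E15.5 and 2263 ± 725 in cKO at E13.5, a change of -1.10 ± 0.19 (adjusted p = 5.7e-05). In WT it averaged 1210.2 ± 283 at E15.5 and 2743 ± 581 at E13.5, a change of -1.18 ± 0.19 (adjusted p = 3.9e-05). Kdr was below every E13.5 library in all 6 libraries of E15.5. Tek averaged 284 ± 16.7 in cKO at E15.5 and 602 ± 266 in cKO at E13.5 (-0.98 ± 0.22, adjusted p = 0.00074). In WT it averaged 309 ± 35.0 at E15.5 and 579 ± 104 at E13.5 (-0.89 ± 0.22, adjusted p = 0.0023).

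Flt1 dipped at E15.5 and was higher again at E17.5. It read 732, 906 and 691 in cKO libraries at E11.5, 602, 842 and 727 at E13.5, then 479.7, 515 and 506 at E15.5, and 727, 789.6 and 1081 in the libraries labelled cKO at E17.5. In WT it read 815, 736 and 720.5 at E11.5, 899.5, 1820.2 and 767 at E13.5, then 500.2, 536 and 509 at E15.5, and 937, 884 and 1111 in the libraries labelled WT at E17.5. All 6 libraries of E15.5 are lower than every library of every other day. The fall to E15.5 was -0.52 ± 0.22 in cKO (adjusted p = 0.046) and -1.07 ± 0.22 in WT (adjusted p = 0.00044), and the step up to E17.5 was 0.77 ± 0.22 in cKO (adjusted p = 0.012) and 0.92 ± 0.22 in WT (adjusted p = 0.0033). The cKO fall lies at the threshold. It was -0.52 without the 5 C libraries (adjusted p = 0.18), and leaving out cKO library B or C at E13.5 (-0.40 and -0.51) or A, B or C at E15.5 (-0.49, -0.54 and -0.53) also ended that call. The cKO step to E17.5 was 0.78 without the 5 C libraries (adjusted p = 0.078) and 0.60 without library C labelled cKO at E17.5, both past the threshold no longer, and the WT step was 0.96 without WT B and C at E15.5 (adjusted p = 0.081).

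The glucose transporter Slc2a1 (GLUT1), which feeds glucose across the barrier and is also made by other embryonic cells, fell in both genotypes. In cKO it read 6622, 5884 and 6297 at E11.5, 4600.1, 3494 and 3633 at E13.5, then 1714, 1757 and 1779 at E15.5, and 2502, 2424 and 2856 in the libraries labelled cKO at E17.5. Its WT values were 5560.1, 5186 and 5266 at E11.5, 4117, 7306 and 3746 at E13.5, then 1764, 2345 and 2012 at E15.5, and 2089, 1976 and 1858 in the libraries labelled WT at E17.5. No library of E15.5 or E17.5 reached the lowest library of E11.5 or E13.5. The change from E13.5 to E15.5 was -1.15 ± 0.17 in cKO (adjusted p = 6.4e-06) and -1.25 ± 0.17 in WT (adjusted p = 3.9e-06). An earlier fall, from E11.5 to E13.5, passed in cKO (-0.69 ± 0.17, adjusted p = 0.006), but not without the 5 C libraries (-0.64, adjusted p = 0.16), and the WT value was -0.14 ± 0.17. WT was -0.44, and called, when the high library B at E13.5 was left out. From E15.5 to E17.5 Slc2a1 rose in cKO (0.56 ± 0.17, adjusted p = 0.015), with the call lost without the 5 C libraries (0.58) or without library C labelled cKO at E17.5 (0.49), and the WT value was -0.04 ± 0.17. Slc2a1 overlaps the genes Mir1957a on its strand and Gm12867 and Gm12868 on the opposite strand, and Cdh5 overlaps Gm29682 on the opposite strand. Whether reads were counted by strand is not given in the sources, so those genes may share reads.

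Rgs5, a regulator of G-protein signalling that marks pericytes, rose while the endothelial genes fell. In cKO it read 679, 745 and 655 at E11.5, 764, 1962 and 1366 at E13.5, then 2564, 2525 and 2515 at E15.5, and 3447, 3605 and 3495 in the libraries labelled cKO at E17.5. In WT it read 598, 989.6 and 863 at E11.5, 1650.0, 1879 and 1699 at E13.5, then 2418, 2362 and 2388 at E15.5, and 3598, 3734 and 4145 in the libraries labelled WT at E17.5. The ranges of successive days do not overlap in either genotype. From E11.5 to E17.5 the change was 2.34 ± 0.21 in cKO (adjusted p = 6.8e-09) and 2.25 ± 0.21 in WT (adjusted p = 6.9e-09). The step from E11.5 to E13.5 was 0.87 ± 0.21 in cKO (adjusted p = 0.0059) and 1.12 ± 0.21 in WT (adjusted p = 0.00025). The cKO call was lost without cKO library B at E13.5 (0.56) and without the 5 C libraries (0.78, adjusted p = 0.17). From E13.5 to E15.5 it was 0.997 ± 0.212 in cKO (adjusted p = 0.00042) and 0.46 ± 0.21 in WT (adjusted p = 0.084), and from E15.5 to E17.5 it was 0.47 ± 0.21 in cKO (adjusted p = 0.10) and 0.68 ± 0.21 in WT (adjusted p = 0.019). The last WT call was lost without the 5 C libraries (0.68, adjusted p = 0.11), without WT library B or C at E15.5 (0.67 and 0.68), without both of these (0.66) and without library C labelled WT at E17.5 (0.62).

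Pdgfrb encodes the PDGF-B receptor of pericytes and is also expressed by fibroblasts of the meninges, the membranes over the cortex. In cKO it read 981, 986 and 898 at E11.5, 474, 1124 and 909 at E13.5, then 579, 525 and 558 at E15.5, and 898, 1083 and 1194 in the libraries labelled cKO at E17.5. The WT series was 1075, 1205 and 1126 at E11.5, 900.5, 1266 and 833 at E13.5, then 656, 1517 and 1089 at E15.5, and 862, 896 and 954 in the libraries labelled WT at E17.5. In cKO the libraries of E15.5 are lower than those of E11.5 and E17.5, while WT spreads most at E15.5. From E13.5 to E15.5 the change was -0.50 ± 0.26 in cKO (adjusted p = 0.097) and 0.06 ± 0.26 in WT (adjusted p = 0.87). The cKO value passed without cKO library A at E13.5 (-0.87) and by edgeR (-0.62), and without libraries B and C of WT at E15.5 the WT value was -0.58 (adjusted p = 0.15). From E15.5 to E17.5 the change was 0.92 ± 0.26 in cKO (adjusted p = 0.011), or 0.93 without the 5 C libraries (adjusted p = 0.072), and -0.19 ± 0.26 in WT (adjusted p = 0.63).

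The other steps of the course moved fewer of the 10 genes. From E11.5 to E13.5, Rgs5 rose and Cldn5 and Slc2a1 fell in cKO, against 15.5% of all genes rising and 9.62% falling, and without the 5 C libraries none of these calls was made by limma, with 3 of the 10 at an unadjusted p under 0.05. In WT, Rgs5 alone rose, against 29.6% rising and 25.7% falling, and edgeR called 2, adding Flt1. Leaving out WT library B at E13.5 added Pecam1 (-0.42) and Slc2a1 (-0.44) as falling, and leaving out A or C added Flt1 as rising (0.64 and 0.76). From E15.5 to E17.5, Cldn5, Flt1, Slc2a1, Mfsd2a and Pdgfrb rose in cKO, against 15.4% of all genes rising and 13.6% falling, and Mfsd2a alone was called without the 5 C libraries. Without library C labelled cKO at E17.5, 2 were called. In WT, Cldn5, Flt1 and Rgs5 rose, against 17.6% rising and 14.6% falling. Of these, 1 was called without the 5 C libraries or without WT library C at E15.5, and limma called 0 without both WT B and C at E15.5, with Kdr and Flt1 at an unadjusted p under 0.05. Over the whole span from E11.5 to E17.5, Pecam1, Cdh5, Kdr, Tek and Slc2a1 fell in both genotypes. In cKO these 5 stand against 32.5% of all genes falling, and Rgs5 and Mfsd2a rose, against 35.2%. In WT the 5 stand against 36.4% of all genes falling, and Rgs5 rose, against 38.4%. The WT call of Kdr (-0.47 ± 0.19) was lost without the 5 C libraries (-0.46), without WT library A, B or C at E11.5 (-0.45, -0.49 and -0.46) and without library A or B labelled WT at E17.5 (-0.42 and -0.41), and that of Tek (-0.64 ± 0.22) without the 5 C libraries (-0.65) and without library A labelled WT at E17.5 (-0.54).

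Between genotypes, most of the 10 genes did not differ past the threshold on any day, and Mfsd2a at E17.5 was the exception. At E11.5 limma called 0 of the 10, edgeR called 0, and none had an unadjusted p under 0.05, against 3.13% of all genes called. At E13.5 limma called 0, with Flt1 and Rgs5 at an unadjusted p under 0.05, and edgeR called Flt1, against 22.3% of all genes. At E15.5 limma called 0, with Pecam1, Cdh5 and Pdgfrb at an unadjusted p under 0.05, and edgeR called Pdgfrb, against 2.52% of all genes. At E17.5 both tools called 1, Mfsd2a, against 40.4% of all genes (18.6% higher in the libraries labelled cKO and 21.8% lower). The mean of the effects over the 4 days was called for Mfsd2a alone (0.26 ± 0.05, adjusted p = 0.00082), against 35.6% of all genes. That count was 4 without WT library A at E15.5, 3 without WT library C or cKO library B at E13.5, and 2 without library C labelled cKO at E17.5. It includes E17.5. Over the other 3 days, an alternative chosen after seeing the data, the mean of Mfsd2a was 0.08 ± 0.06 (adjusted p = 0.38), so its call rests on the day whose labels are in doubt. Over those days Pdgfrb alone was called (-0.49 ± 0.15, adjusted p = 0.040), against 11.1% of all genes, and its effect at E15.5 rests on WT libraries B and C. The median difference of the 10 genes at E11.5 was 0.03, beside -0.0039 over all genes. It was -0.23 beside -0.02 at E13.5, then -0.17 beside 0.04 at E15.5, and -0.08 beside -0.04 on the last day.

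**Figure D3:**
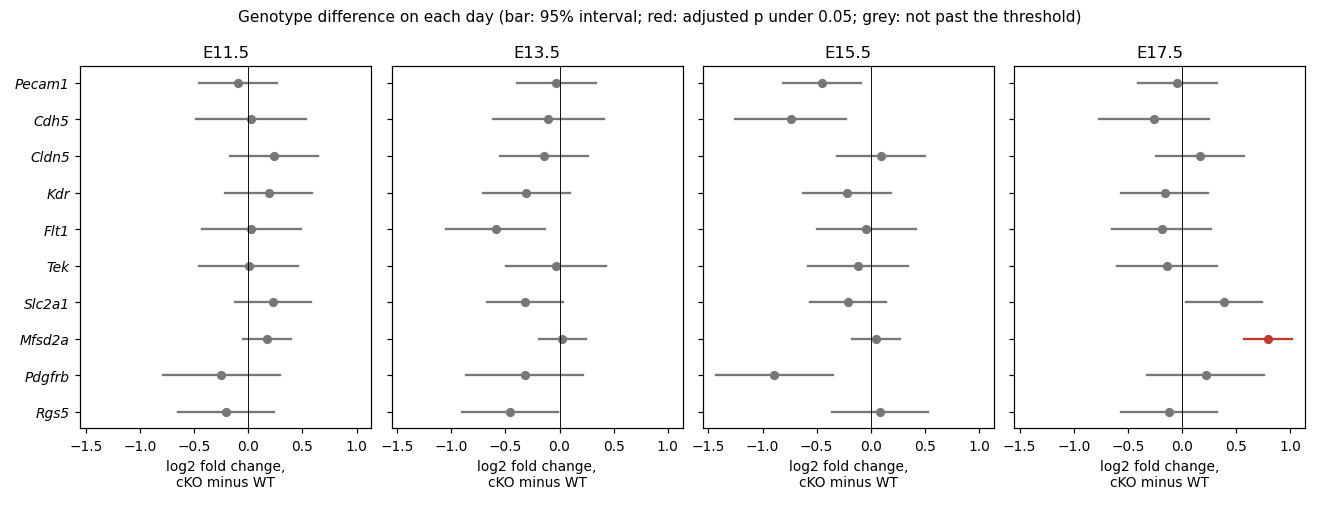
Log2 fold change of each gene, cKO minus WT (horizontal axis), on each day with 95% intervals. Only Mfsd2a at E17.5, in red, passed the limma threshold. At E15.5 the points of Cdh5 and Pdgfrb lie farthest to the left, and these rest on WT libraries B and C.

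Mfsd2a encodes a lysophospholipid transporter that brings docosahexaenoic acid into the brain and holds back transcytosis in barrier endothelium. It read 1128, 972 and 1157 in cKO at E11.5, 960.4, 793 and 934 at E13.5 and 865, 987 and 898 at E15.5, and in WT 940.0, 936 and 1009.7 at E11.5, 935, 803 and 897 at E13.5 and 1003, 760.4 and 914 at E15.5. On those 3 days the libraries of the 2 genotypes overlapped. At E17.5 it read 1899.8, 1743 and 1582 in the libraries labelled cKO and 971, 1017 and 1014 in those labelled WT, and every cKO-labelled value is the higher. The difference was 0.80 ± 0.11 (adjusted p = 4.4e-06), and without the 5 C libraries 0.80 (adjusted p = 0.00014). It was called under every alternative and with every single library left out. The effect at E17.5 exceeded that at E15.5 by 0.75 ± 0.15 (adjusted p = 0.00074), and the joint F test over the 4 days gave an adjusted p of 0.0011. By that F test Mfsd2a was the only one of the 10 called, against 32.2% of all genes, and edgeR called 2. The count was also 2 without WT library A, B or C or cKO library B at E13.5, 3 without cKO library A at E13.5, and 4 without WT library A at E15.5. From cKO at E15.5 to the libraries labelled cKO at E17.5, Mfsd2a rose by 0.92 ± 0.11 (adjusted p = 2.5e-06), and from WT at E15.5 to those labelled WT the value was 0.17 ± 0.11 (adjusted p = 0.23). With the labels exchanged the difference at E17.5 and its change since E15.5 would be negative, and the larger step would belong to WT.

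The difference in Mfsd2a came in libraries that also differed in their progenitor genes. The summed reads of 10 radial glia genes, which mark the neural progenitors, were 137203 to 149492 in the libraries labelled cKO at E17.5 and 40648 to 44945 in those labelled WT. All 10 were higher in the libraries labelled cKO, against 18.6% of all genes. The sum of 12 genes of postmitotic neurons was 216818 to 256963 in the libraries labelled cKO and 488774 to 543954 in those labelled WT. Of the 12, 11 were lower in the libraries labelled cKO, against 21.8% of all genes. The endothelial genes were not higher there: the sum of the 6 endothelial members was 4771 to 6295 in the libraries labelled cKO and 5306 to 5983 in those labelled WT, and the sum of 20 other endothelial genes was 5439 to 6301 in the libraries labelled cKO and 6074 to 6318 in those labelled WT. The part of the progenitor genes in the Mfsd2a difference was not tested. Slc2a1 was also above every WT-labelled library at E17.5 (0.39 ± 0.17, adjusted p = 0.07), and passed with TMM factors (0.42, adjusted p = 0.043) and with only the groups compared.

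At E13.5 the genotype values of the vessel genes depended on single libraries. Flt1 averaged 724 ± 119.7 in cKO and 1162 ± 574 in WT, a difference of -0.59 ± 0.22 (adjusted p = 0.058), and by edgeR -0.65 (adjusted p = 0.040). Rgs5 averaged 1364 ± 599 in cKO and 1743 ± 120.4 in WT, a difference of -0.45 ± 0.21 (adjusted p = 0.13). In both cases the ranges overlapped. WT library B had 1820.2 reads of Flt1 and 7306 of Slc2a1, the highest of that day. The same library had 7032 reads of Vegfa, against 2656 and 2776 in WT A and C, 177 of Adm, against 38.4 and 59.2, and 895 of Egln3, against 349 and 347; Adm and Egln3 are induced by hypoxia. Library A of cKO was lowest of its group for Tek (329), Pdgfrb (474), Rgs5 (764), Cdh5 and Kdr, and had the highest sum of 14 genes of hypoxia and glycolysis of that day (78975). The embryonic globin Hbb-bh1 read 4927 in WT B, against 1046 and 687 in WT A and C. It read 4396 in cKO A, against 502 and 1879 in cKO B and C. The adult globin Hbb-bs was lowest of its group in both, at 2309 in WT B and 469 in cKO A. The part of such differences between libraries in the genotype values was not tested. Leaving out cKO library B brought 3 genes past the threshold, Kdr (-0.53), Flt1 (-0.70) and Rgs5 (-0.77), and leaving out WT library A or C brought Flt1 past it (-0.72 and -0.83). Each of these settings keeps WT library B, the high one for Flt1. The other WT libraries, A and C, read 899.5 and 767 for Flt1. That range overlaps the 602, 842 and 727 of cKO A, B and C.

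At E15.5 the lower cKO values of Pecam1, Cdh5 and Pdgfrb rested on WT libraries B and C. Pdgfrb averaged 554 ± 27.1 in cKO and 1087 ± 431 in WT, a difference of -0.89 ± 0.26 (adjusted p = 0.077), and by edgeR -0.98 (adjusted p = 0.027). Cdh5 averaged 587 ± 16.7 in cKO and 1053 ± 465 in WT, a difference of -0.74 ± 0.25 (adjusted p = 0.14). Pecam1 had means of 621 ± 21.9 in cKO and 875 ± 249.6 in WT, a difference of -0.45 ± 0.17 (adjusted p = 0.24). Of these only Pdgfrb had every cKO library below every WT library. With WT A alone on the WT side, whose spread is then assumed to be that of the other groups, the 3 differences were -0.24, -0.02 and -0.02, and those of all 10 genes lay between -0.24 and 0.08. Without WT library A the 3 genes were called, at -1.21, -1.10 and -0.67. The summed reads of 12 genes of meninges and fibroblasts were 1661 to 2597 in the cKO libraries, 123183 and 60798 in WT B and C and 1992 in WT A, and their part in the difference was not tested.

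Whether the genotype effect changed from one day to the next was called for few of the 10 genes. Between E11.5 and E13.5 limma called 0, with 1 at an unadjusted p under 0.05, against 0.285% of all genes. Between E13.5 and E15.5 it called 0, with 0 at an unadjusted p under 0.05, against 6.21%, though Cdh5 (-0.99) was called without WT library A at E15.5 and Rgs5 (0.85) without cKO library B at E13.5. Between E15.5 and E17.5 it called Mfsd2a and Pdgfrb, against 29.1%. Without WT library A at E15.5, Pecam1 (0.63), Cdh5 (0.84) and Slc2a1 (0.70) were called as well. The Pdgfrb effect rose by 1.11 ± 0.37 (adjusted p = 0.027), but this was 0.46 without libraries B and C of WT at E15.5 (adjusted p = 0.48) and 1.07 without the 5 C libraries (adjusted p = 0.14). It was lost in turn without WT library B (0.83) or C (1.07) or cKO library B (1.07) of E15.5, or without library A labelled WT (1.08) or B (1.09) or C (1.02) labelled cKO of E17.5. The Mfsd2a effect was 0.71 without the 5 C libraries (adjusted p = 0.020) and 0.93 without WT B and C at E15.5 (adjusted p = 0.0012).

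A wider list of 20 endothelial genes moved with the members over time. From E13.5 to E15.5, 19 of the 20 fell in cKO, against 29.9% of all genes, and 10 fell in WT, against 22.8%. The medians were -1.05 in cKO and -0.65 in WT, beside 0.0031 and 0.0013 over all genes. Without the 5 C libraries 14 fell in cKO and 5 in WT, and without libraries B and C of WT at E15.5, a setting added for the lists after seeing the data, 16 fell in WT. Mmrn2, a matrix protein of the endothelial surface, fell by 1.22 ± 0.15 in cKO (adjusted p = 6e-07) and by 0.98 ± 0.15 in WT (adjusted p = 1.7e-05). Aplnr, the apelin receptor of sprouting vessels, fell by 1.66 ± 0.17 in cKO (adjusted p = 3.7e-08) and by 0.86 ± 0.17 in WT (adjusted p = 0.00022). From E11.5 to E13.5, 10 of the 20 fell in cKO, against 9.62% of all genes, and 10 in WT, against 25.7%. Aplnr, Ramp2 and Cd34 were among those that fell in both, and without the 5 C libraries 1 fell in cKO and 6 in WT. Between genotypes, Ptprb was lower in cKO at E13.5 (-0.86 ± 0.28, adjusted p = 0.033), when 22.3% of all genes were called. Erg, an ETS factor that maintains endothelial identity, was lower at E15.5 (-0.93 ± 0.21, adjusted p = 0.023), when 2.52% of all genes were called. Erg read 103, 93.2 and 105 in cKO and 137, 308 and 168 in WT at E15.5, where the high WT values are those of libraries B and C. Neither call was made without the 5 C libraries, and without WT B and C at E15.5 the Erg difference of that day was -0.45 and not called. The median difference of the list at E11.5 was 0.07 and at E13.5 it was -0.06. At E15.5 it was -0.37, or -0.06 without WT B and C, and -0.05 on the last day.

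**Figure D4:**
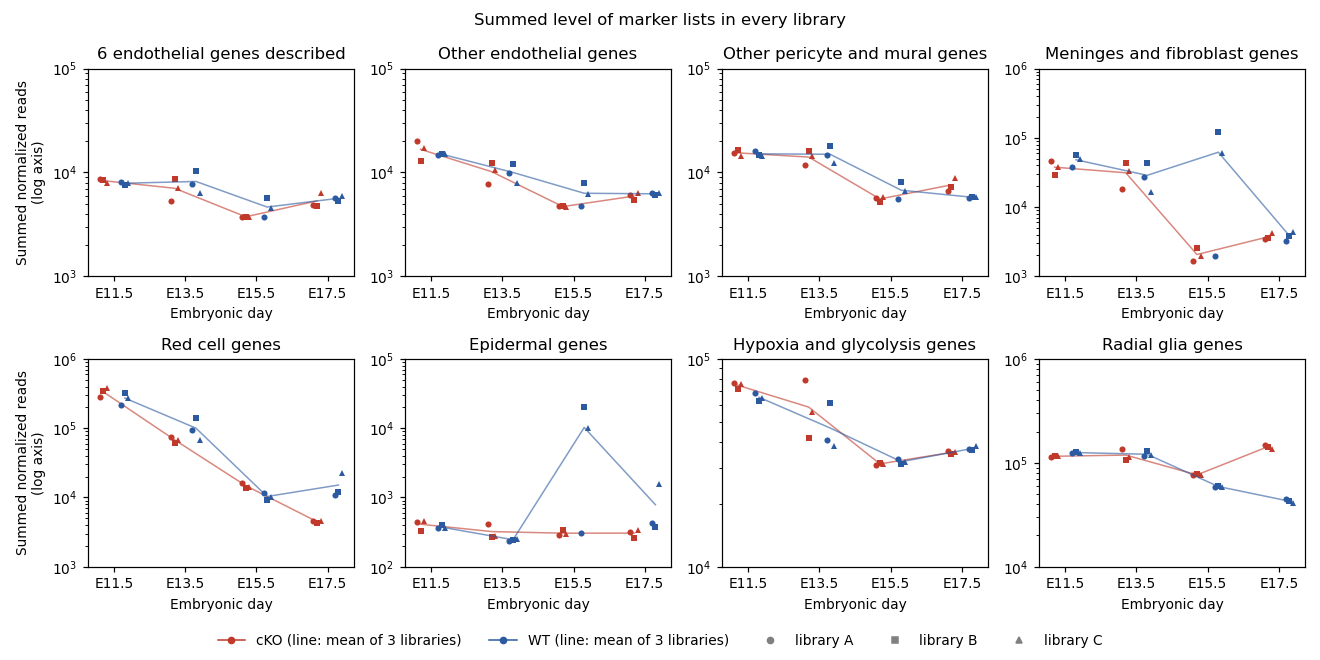
Summed normalized reads (vertical log axis) of the 6 endothelial members and of 7 marker lists, by embryonic day and genotype, with lines joining group means. The endothelial sums drop by E15.5; at E15.5 the meninges and epidermal sums of WT libraries B and C stand apart, and at E17.5 the radial glia sum is 137203 to 149492 in the libraries labelled cKO, above those labelled WT.

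Many genes of meninges, blood and immature vessels also fell from E13.5 to E15.5, though not all, and in WT those of meninges depended on the library. Of the 12 genes of meninges and fibroblasts, 10 fell in cKO, and 3 fell and 1 rose in WT. Without WT B and C at E15.5 the WT median of these 12 was -4.11, beside 0 over all genes. The sum of the 12 was 1661 to 2597 in cKO at E15.5 and 18153 to 42864 in cKO at E13.5. In WT it was 1992, 123183 and 60798 in A, B and C at E15.5 and 16512 to 42847 at E13.5. Over all genes tested, the shares for this step were 29.9% falling and 31.9% rising in cKO, and 22.8% falling and 24.2% rising in WT. Of 10 red cell genes, 5 fell and 1 rose in cKO and 7 fell in WT. The one that rose was the adult beta globin Hbb-bs (2.13 ± 0.57, adjusted p = 0.003). It read 469, 4074 and 3261 in cKO A, B and C at E13.5 and 7651 to 8897 at E15.5, so the size of this rise leans on library A. Embryonic globins are on the same list, such as Hbb-y, with 43683 to 46610 in cKO at E13.5 and 741 to 836 at E15.5. These counts therefore do not measure the amount of blood. Of 8 genes of immature endothelium, 6 fell and 1 rose in each genotype, and Ackr1, an atypical chemokine receptor of venules, was the one that rose (0.98 ± 0.23 in cKO, adjusted p = 0.0011, and 1.13 ± 0.23 in WT, adjusted p = 0.0004). Plvap, a protein of fenestrated and immature endothelium, fell by 2.76 ± 0.42 in cKO (adjusted p = 9.1e-06) and by 1.75 ± 0.42 in WT (adjusted p = 0.0016), or by 3.11 in WT without libraries B and C of E15.5. The part of meningeal tissue or blood in the fall of the 6 members was not tested. Without WT libraries B and C, which hold the meningeal reads at E15.5, the WT fall of the 6 genes ranged from -0.92 to -1.62, with Pecam1 and Cdh5 at the ends. That setting sets WT A, with a meningeal sum of 1992, against 16512 to 42847 at E13.5. The meningeal genes fall in it as well, so it cannot separate their fall from that of the 6 genes.

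Other barrier genes went both ways. Of 19 tested genes of barrier endothelium, 4 rose and 8 fell from E13.5 to E15.5 in cKO, against 31.9% and 29.9% of all genes. In WT 4 rose and 8 fell, against 24.2% and 22.8%. Lsr, a tricellular junction protein, fell by 2.37 ± 0.19 in cKO (adjusted p = 2.7e-09) and by 1.66 ± 0.19 in WT (adjusted p = 7.6e-07), and Tfrc, the transferrin receptor, by 0.69 ± 0.10 in cKO (adjusted p = 4.9e-06) and 0.73 ± 0.10 in WT (adjusted p = 4.4e-06). Slco1c1, a thyroid hormone transporter of the barrier, read 14.1, 10.5 and 8.13 in cKO at E11.5, 6.28, 52.8 and 21.8 at E13.5, then 252, 244 and 252 at E15.5, and 2994, 2835 and 2066 in the libraries labelled cKO at E17.5. In WT it read 6.37, 17.6 and 7.79 at E11.5, 41.3, 13.2 and 61.0 at E13.5, then 397, 262 and 328 at E15.5, and 1558, 1771 and 1980.0 in the libraries labelled WT at E17.5. Its rise from E15.5 to E17.5 was 3.38 ± 0.54 in cKO (adjusted p = 8.7e-05) and 2.44 ± 0.54 in WT (adjusted p = 0.0017), which without WT B and C at E15.5 was 2.15 and no longer called (adjusted p = 0.11). At E17.5, 4 of the 19 were called, against 40.4% of all genes. Lef1, a Wnt target and effector (0.98 ± 0.22, adjusted p = 0.0011), Tjp1 (0.45 ± 0.16, adjusted p = 0.027) and Abcg2 (0.25 ± 0.09, adjusted p = 0.029) were higher in the libraries labelled cKO, and Spock2 was lower (-0.91 ± 0.19, adjusted p = 0.00068). Without the 5 C libraries 1 was higher and 1 lower. Most of these genes are also expressed outside endothelium. Of the list, Slco1a4 was under 10 in every library.

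The pericyte list did not move as one either. Of its 16 genes, 4 rose and 10 fell in cKO from E13.5 to E15.5, against 31.9% and 29.9% of all genes. In WT 2 rose and 7 fell, against 24.2% and 22.8%. Higd1b, a marker of brain pericytes, followed Rgs5. It was listed at 0 in all 6 libraries of E11.5, and read 1.05, 4.89 and 2.08 in cKO at E13.5, then 35.9, 39.4 and 38.9 at E15.5 and 103, 87.6 and 94.1 in the libraries labelled cKO at E17.5. Among WT libraries it read 0.961, 0.944 and 2.82 at E13.5, then 41.0, 41.5 and 28.4 at E15.5, and 56.7, 88.7 and 77.5 in the libraries labelled WT at E17.5. From E13.5 to E15.5 it rose by 3.55 ± 0.34 in cKO (adjusted p = 2.1e-08) and by 3.94 ± 0.34 in WT (adjusted p = 1.2e-08). Tbx18 and Foxc1, transcription factors of mural and meningeal cells, fell in cKO by 3.78 ± 0.42 (adjusted p = 1.5e-07) and 2.30 ± 0.35 (adjusted p = 1.1e-05). In WT without libraries B and C of E15.5, which hold the meningeal reads of that day, the median change of the 16 genes was -1.17. Over all genes it was 0. Between genotypes, the proteoglycan Cspg4 (NG2) was lower in cKO at E13.5 (-1.15 ± 0.23, adjusted p = 0.0025), as was the potassium channel subunit Abcc9 (-0.62 ± 0.17, adjusted p = 0.015), and Mcam was higher (0.38 ± 0.13, adjusted p = 0.045). On that day 22.3% of all genes were called, and only 1 of the list was called without the 5 C libraries. At E17.5, 3 of the 16 genes were higher in the libraries labelled cKO, against 18.6% of all genes. They were Mcam (0.75 ± 0.13, adjusted p = 0.00013), Notch3 (1.02 ± 0.23, adjusted p = 0.0013) and Ebf1 (0.88 ± 0.31, adjusted p = 0.027).

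Of 17 tested genes of signals that act on vessels, 3 were higher and 1 lower in the libraries labelled cKO at E17.5, no larger a share than the 18.6% higher and 21.8% lower among all genes. Their median was 0.24 beside -0.04 over all genes. Wnt7a, which acts on the barrier, read 1898, 1765 and 1638 in the libraries labelled cKO and 1076, 1019 and 887 in those labelled WT (0.83 ± 0.11, adjusted p = 4.3e-06). Wnt7b went the other way, with 4132, 5363 and 4266 in the libraries labelled cKO and 11873, 11519 and 10412 in those labelled WT (-1.30 ± 0.17, adjusted p = 4.8e-06). Groups overlap for neither. Tgfb2 (1.79 ± 0.15, adjusted p = 9.9e-09) and Itgb8, an integrin that activates TGF-beta around brain vessels (0.83 ± 0.14, adjusted p = 7.6e-05), were higher too. Vegfa read 2997, 2920.1 and 3251 in the libraries labelled cKO and 2218, 2505 and 2381 in those labelled WT, and was not called.

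Of 8 genes of immature and sprouting endothelium, 2 were higher in the libraries labelled cKO at E17.5, against 18.6% of all genes, and the median of the list was -0.23 beside -0.04. Apln, the apelin ligand of tip cells, read 866, 760.1 and 608 in the libraries labelled cKO and 316, 360.2 and 455 in those labelled WT (0.98 ± 0.15, adjusted p = 3.4e-05). Angpt2, which destabilizes vessels for sprouting, read 75.4, 47.9 and 63.7 in the libraries labelled cKO and 24.6, 19.7 and 33.0 in those labelled WT (1.25 ± 0.23, adjusted p = 0.00016). Plvap read 28.2, 20.4 and 25.7 in the libraries labelled cKO and 44.9, 62.4 and 35.3 in those labelled WT, and Esm1, a gene of tip cells, read 7.27, 20.4 and 22.8 in the libraries labelled cKO and 14.96, 13.1 and 25.1 in those labelled WT. Neither of these passed. Among 14 genes of hypoxia and glycolysis 3 were higher and 3 lower there, near the shares over all genes, and the oxygen sensor Egln3 (1.75 ± 0.23, adjusted p = 3.3e-06), Hk2 (1.09 ± 0.16, adjusted p = 1.2e-05) and Adm (1.34 ± 0.36, adjusted p = 0.0056) were the 3 higher in the libraries labelled cKO. Ndrg1 was lower (-1.79 ± 0.41, adjusted p = 0.0014). The median of that list was 0.02, beside -0.04 over all genes. At E15.5 Apln was lower in cKO (-0.65 ± 0.15, adjusted p = 0.027), a call not made without the 5 C libraries, nor without WT libraries B and C (-0.29).

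The genes most like the members were looked for among all genes averaging at least 50 reads, by Pearson r over the 24 libraries. To the mean profile of the 6 endothelial members, the 10 closest were Pcdh12 (r = 0.94), Rasgrp3, Acvrl1, Cd93, Calcrl, Ets1, She, Eogt, Nos3 and Stard13 (r = 0.91). The libraries share days, so r describes a common course. In cKO each of the 10 fell from E13.5 to E15.5, against 29.9% of all genes. In WT 9 did, against 22.8%, with Eogt at -0.33 ± 0.15 (adjusted p = 0.084). They were picked by likeness to a profile that fell over this step, so their fall follows from the choice. Calcrl, a receptor for adrenomedullin, fell most, by 2.08 ± 0.31 in cKO and 1.53 ± 0.31 in WT. By limma, 0 of the 10 were called between genotypes on any day, and none had an unadjusted p under 0.05. To the profile of the pericyte members the closest were Pdgfra (r = 0.86), Slco2a1, Itpr2, Inpp4b and Pde7b (r = 0.82).

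The members did not all vary together. Over the 24 libraries, the 10 pairs among the endothelial members other than Cldn5 had r of 0.35 to 0.95, while Cldn5 had r of -0.34 to 0.18 with the other 5. Rgs5 had r of -0.83 with Slc2a1 and -0.80 with Cdh5, and -0.04 with Pdgfrb, the other pericyte gene. Within groups, that is, after the group mean was taken off, Pdgfrb went with Kdr (r = 0.92), Pecam1 (0.84), Tek (0.83), Cdh5 (0.83) and Rgs5 (0.64), and Mfsd2a ran opposite to Kdr (-0.77), Pdgfrb (-0.76) and Cdh5 (-0.76). These r describe 24 libraries that share dissection and depth, 5 of which lie near sums of others.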

How the data were processed

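RNA from cortical ventricular zone was sequenced after polyA selection with a stranded kit, per the labels' protocols. The signal values deposited by the authors are reads per gene, scaled with a size factor per library. The tools named in the submitters' processing notes are DESeq 1.22.1, HTSeq 0.5.3, STAR 2.5.0a and cutadapt 1.6, with the build mm10 (GRCm38). What each did, the annotation used and whether strand was counted are not given in the sources. Whole reads were recovered from 100% of values within 0.01. Coordinates and exon lengths are from GENCODE M21, which held 22411 of the 22529 identifiers.

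Values were tested with limma 3.58.1 (R 4.3.3) on log2(value + 1), with the variance prior following mean expression, 1 mean for each of 8 groups, two-sided, adjusted by Benjamini-Hochberg over the 17518 genes with at least 10 in at least 3 libraries, with a threshold of 0.05. The log2(value + 1) scale understates changes of low genes. The quasi-likelihood test of edgeR 4.0.16 on recovered reads was an alternative, as were a block for the letter, TMM factors, other pseudocounts (0.5 and 5), other filters (none, or a mean of 50 or more), no trend, a fit of the compared groups alone, and leaving out libraries. The mean effect without E17.5, and the listed genes without libraries B and C of WT at E15.5, were added after seeing the data. The scripts were tested on simulated data.

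The members and the 14 marker lists (173 genes, of which Vegfd was not in the table) were chosen with earlier results of these data known. Named were the 10 members, up to 4 called genes of a list in each comparison described, and the genes most like the members by Pearson r. Genes named from single libraries or to contrast with these (Vegfa, Adm, Egln3, Hbb-bh1 and Hbb-bs at E13.5, Hbb-y at E13.5 and E15.5, Erg and Apln at E15.5, Slco1c1, Higd1b and Vegfa at E17.5 in every library) were chosen after their values were seen.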

Additional observations from a re-analysis of the deposited data

Results flagged for a closer look

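Mfsd2a stood out because its difference between genotypes was not the same on all days. The effect in the libraries labelled at E17.5 was 0.75 higher on the log2 scale than the effect at E15.5, and the joint F test over the 4 days gave an adjusted p of 0.0011 by limma. All 3 libraries labelled cKO at E17.5 were higher than all 3 labelled WT. Prdm16 reads go against the labels of that day, and with the labels exchanged both the difference at E17.5 and this change would be negative.

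Pdgfrb was also picked out by a changing effect, which was 1.11 higher in the libraries labelled at E17.5 than at E15.5 on the log2 scale. The call of this change was lost without libraries B and C of WT at E15.5, which hold the meningeal and epidermal reads of that day. It was also lost without the C libraries that came close to mixtures of A and B. Every cKO library was lower than every WT library at E15.5, where WT A, B and C read 656, 1517 and 1089. The groups as labelled overlapped at E17.5. With the labels of E17.5 exchanged, the difference of that day would change sign. The joint F test did not call Pdgfrb (adjusted p = 0.11 by limma).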

How the results depend on the processing

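Of 160 fold changes of the 10 genes, 42 were called. Over 1730 values under the alternatives other than leaving out a library, 26 calls were lost, 28 were gained and 0 reversed, and 31 uncalled values changed sign. Over 1320 values with 1 library left out, 33 were lost, 34 gained and 0 reversed, and 75 uncalled values changed sign.

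The number of genes called from E11.5 to E13.5 was 1 in WT, and 2 with edgeR, a mean of at least 50, only the groups compared or the replicate block; it was 3 in cKO, and 1 with only the groups compared and 0 without the 5 C libraries. From E15.5 to E17.5 it was 3 in WT, and 0 without WT B and C at E15.5 and 1 without the 5 C libraries; it was 5 in cKO, and 9 with only the groups compared and 1 without the 5 C libraries. For cKO minus WT it was 0 at E13.5 and 1 with edgeR, 0 at E15.5 and 1 with edgeR or the replicate block, and 1 at E17.5 and 2 with TMM factors or only the groups compared. The F test called 1, and 2 with TMM factors or edgeR, and the mean effect called 1, and 2 with the replicate block. Only the groups compared gave no value for those last 2 tests.

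With 1 library left out, the counts were 0 at E11.5, 0 to 3 at E13.5, 0 to 3 at E15.5 and 1 at E17.5 between genotypes, 1 to 4 for the mean effect and 1 to 4 for the F test. For the 4 course comparisons they were 2 to 4, 6 to 8, 2 to 5 and 7 to 8 in cKO, and 1 to 3, 5 to 6, 1 to 4 and 4 to 7 in WT. Letters did not pair the libraries: 1 of 12 same-letter pairs had deviations correlated above 0.1 (range -0.43 to 0.11). The cause of these changes was not tested.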

Other observations

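Marker genes of macrophages and red cells, found beside or inside vessels, also differed at E17.5. Of 10 genes of macrophages and microglia, 6 were higher in the libraries labelled cKO than in those labelled WT, against 18.6% of all genes, among them the complement gene C1qa (0.88 ± 0.21, adjusted p = 0.0021 by limma), the purine receptor P2ry12 (0.84 ± 0.20, adjusted p = 0.0023) and the chemokine receptor Cx3cr1 (0.63 ± 0.16, adjusted p = 0.004). Of 10 red cell genes, 6 were lower, against 21.8% of all genes, with Hba-a1, an adult alpha globin with a near-identical copy, at -1.82 ± 0.25 (adjusted p = 6.3e-06) and Alas2 at -1.56 ± 0.32 (adjusted p = 0.00053). Their sum was 4221 to 4649.6 in the libraries labelled cKO and 10699 to 22683 in those labelled WT. The genes of vascular smooth muscle summed to 326 to 399 in the libraries labelled cKO and 253 to 267 in those labelled WT. Those of choroid plexus summed to 34.2 to 54.0 in the libraries labelled cKO and 29.9 to 42.2 in those labelled WT, and these ranges overlap. No tested gene of either list was called at E17.5, against 40.4% of all genes, and each list had only 5 tested genes. The smallest adjusted p by limma was 0.22 for Tagln and 0.25 for Folr1.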
